A study of Rattus norvegicus with 32 samples.

Results

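Genes for the uptake, storage and oxidation of fatty acids were followed in the left ventricle of septic rats. The group holds 39 genes, chosen by symbol: a gene was a member where at least 1 probe on the array, control spots aside, carried its name in the annotation of the scanner files. The members stand among 13674 genes with a RefSeq symbol and a probe above the low-signal filter in at least 1 sex, and all 39 passed that filter in both sexes. The rule used symbols alone, though earlier results of these data were known when the genes were listed.

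The study hybridised cyanine 3-labelled RNA from single hearts of young adult Wistar rats to 32 one-colour Agilent arrays. In each sex there were 5 sham animals, 5 animals with cecal ligation and puncture (CLP, a surgical model of abdominal sepsis) and 6 animals with CLP that received landiolol (a β1-adrenergic receptor blocker with a brief action) as an infusion begun after surgery. All groups received buprenorphine before surgery and a like volume of infusion, saline in the sham and CLP animals, and hearts were collected at 20 hours. Every heart was imaged by MRI and then perfused outside the body on a Langendorff apparatus before RNA was taken, so all groups share that handling.

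A heart takes up long-chain fatty acids from lipoproteins and albumin in the blood and burns them as its main fuel. Lipoprotein lipase frees them at the vessel wall, CD36 and the fatty acid-binding proteins carry them into and through the cell, and acyl-CoA synthetases activate them for storage in lipid droplets or for oxidation. The carnitine shuttle brings the activated acids into the mitochondrion, where the β-oxidation cycle shortens them and hands electrons to the respiratory chain. Many genes of this route are targets of PPARα, a nuclear receptor that fatty acids themselves activate.

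Values are log2 normalised intensities of 1 probe a gene, the brightest over the 32 arrays, and they were not compared between probes or between sexes, since males and females lay on separate slides. A gene was called changed where limma's adjusted p (Benjamini-Hochberg over all probes kept) was below 1% against sham or below 5% for landiolol against CLP. The tissue is bulk ventricle, so fewer cells of a type and less RNA per cell cannot be told apart. All 8 cardiomyocyte markers were well above background on every array, with summed levels from 20.72 to 21.09 and none called after CLP. Of 6 adipocyte markers with a probe, 1 to 3 were well above background on an array, and Adipoq, Plin1 and Lep were not. Summed macrophage and monocyte markers lay at 13.56 to 14.03 in male sham hearts and 14.96 to 15.52 in male CLP hearts, and at 14.02 to 14.48 and 15.01 to 15.68 in females. Of 6 fibroblast markers 4 were called lower in males and 0 in females, with median log2 changes of -1.61 and -1.07 after CLP. Of 6 neutrophil markers 2 could be tested, and 2 were called higher in males and 1 in females, with medians of 3.34 and 3.05. Of 8 endothelial markers 1 was called lower in each sex after CLP, with medians of -0.19 in males and -0.15 in females. For landiolol against CLP 7 of these 8 moved up in males and 8 in females, with medians of 0.24 and 0.31 and 0 called. Against sham 6 of the 8 lay higher in landiolol hearts of each sex, with medians of 0.14 and 0.23. The part of these other cells in the members' changes was not tested. On 4 arrays (male sham 1, male CLP 1, male landiolol 5 and female CLP 5) the probes scattered more widely around the group median than on the other 28. The interquartile range was 0.58 to 0.74 there, against 0.14 to 0.47. Calls that turn on these 4 arrays are given both ways.

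The changes below rest on a few 60-base probes, printed here 5′ to 3′ with their positions in the rat build rn4 as the scanner files give them, because probes of 1 gene did not always give the same call. Capitals mark AATAAA or ATTAAA, the polyadenylation hexamers, searched on the printed strand only. They occurred in 14.3% of the 26492 probes kept, and in 8 of the members' 39 reporting probes.
Ppara probe 1, chr7:123811572-123811631, plus strand: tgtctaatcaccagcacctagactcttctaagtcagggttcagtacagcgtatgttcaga
Ppara probe 2, chr7:123812455-123812514, plus strand: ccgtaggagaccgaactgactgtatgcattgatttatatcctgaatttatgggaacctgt
Ppara probe 3, chr7:123807031-123807090, plus strand: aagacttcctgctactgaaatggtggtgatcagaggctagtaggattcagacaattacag
Acsl1, chr16:49036985-49037044, minus strand: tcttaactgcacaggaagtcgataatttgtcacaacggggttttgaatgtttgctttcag
Acsl4, chrX:36231647-36231706, plus strand: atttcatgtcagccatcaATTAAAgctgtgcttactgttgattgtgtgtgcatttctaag
Mgll probe 1, chr4:122925187-122925246, plus strand: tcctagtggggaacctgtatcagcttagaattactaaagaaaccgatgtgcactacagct
Mgll probe 2, chr4:122924215-122924274, plus strand: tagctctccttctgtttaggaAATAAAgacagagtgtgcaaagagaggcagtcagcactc
Mgll probe 3, chr4:122904962-122905021, plus strand: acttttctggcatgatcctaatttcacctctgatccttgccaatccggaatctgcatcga
Acaa1a probe 1, chr8:124313593-124313652, plus strand: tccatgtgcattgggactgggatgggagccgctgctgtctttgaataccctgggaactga
Acaa1a probe 2, chr8:124312331-124312539, plus strand: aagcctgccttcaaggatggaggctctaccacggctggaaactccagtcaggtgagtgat
Cd36 probe 1, chr4:13525426-13525485, plus strand: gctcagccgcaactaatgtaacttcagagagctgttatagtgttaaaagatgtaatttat
Cd36 probe 2, chr4:13465101-13471898, plus strand: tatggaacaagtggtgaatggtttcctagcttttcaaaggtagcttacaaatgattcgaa
Cd36 probe 3, chr4:13471839-13471898, plus strand: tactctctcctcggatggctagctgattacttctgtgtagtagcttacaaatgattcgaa

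Probe 1 of each gene is the one whose values are reported. Ppara probe 2 starts 883 bases after probe 1. The second probes of Acaa1a and Cd36 span 209 and 6798 bases of the genome, more than their own 60 bases. Whether a probe lies in a coding exon was not looked up, as an annotation of that build was not used here.

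After CLP, the receptor Ppara fell in both sexes. Acsl1, which activates fatty acids, lay lower in every CLP heart than in every sham heart in both sexes, and its change passed the threshold in males. Males were also called for less Mgll, which releases fatty acids from monoglycerides, and more Acsl4, a synthetase that prefers polyunsaturated acids, and females for more Acaa1a, a peroxisomal thiolase. The 16 genes of the mitochondrial β-oxidation cycle with its carnitine transferases and electron carriers gave no call in either sex. Of the 39 members, 1 was higher and 3 were lower in males, where 4.39% of all genes tested were called higher and 5.11% lower. In females 1 was higher and 1 lower, against 2.23% and 2.14% of all genes. The members' median log2 change was -0.11 in males beside -0.02 over all genes, and -0.02 in both for females.

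**Figure D1:**
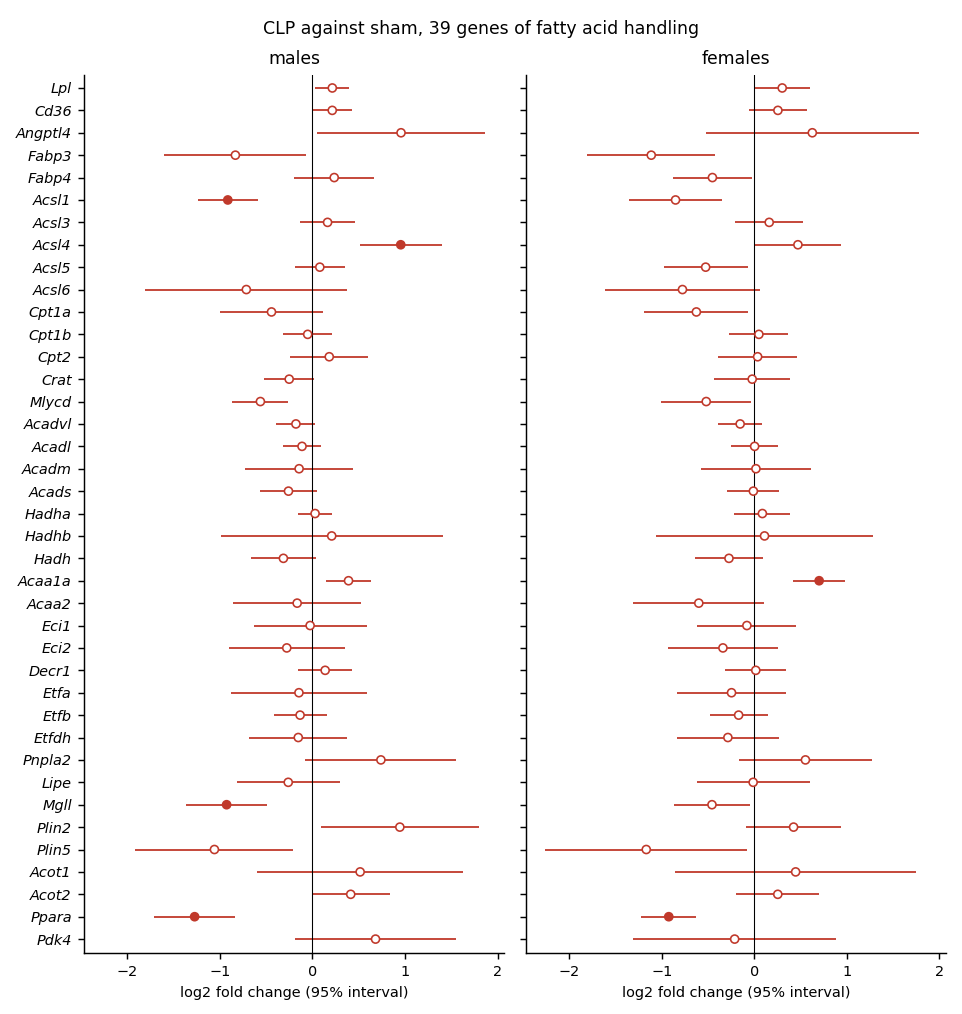
Change of the 39 genes in CLP hearts against sham hearts (x axis, log2 fold change with its 95% interval) for males on the left and females on the right, in the order of their place in the pathway. Filled points are genes called at a false discovery rate of 1%: Acsl1, Acsl4, Mgll and Ppara in males, Acaa1a and Ppara in females.

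Ppara encodes the fatty acid-sensing nuclear receptor PPARα. In male sham hearts its values were 11.26, 11.94, 11.76, 11.90 and 11.92, and in male CLP hearts 10.37, 10.86, 10.66, 10.01 and 10.53. Female sham hearts gave 12.11, 11.40, 11.61, 11.67 and 11.68, and female CLP hearts 10.54, 11.04, 10.71, 10.89 and 10.67. In both sexes every CLP heart lay below every sham heart. The log2 change was -1.27 ± 0.20 (SE) in males, or 2.42-fold lower (limma adjusted p = 0.000646), and -0.92 ± 0.14 in females, or 1.90-fold lower (adjusted p = 0.000802). Within the slides the male changes were -0.97 and -1.59 and the female changes -0.84 and -0.89. The second Ppara probe fell too, by 1.35 on the log2 scale in males (adjusted p = 0.000337) and by 1.30 in females (adjusted p = 5.5e-05). The third probe gave -0.89 (adjusted p = 0.124) and -0.46 (adjusted p = 0.244) and was not called.

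Acsl1 is the main long-chain acyl-CoA synthetase of the heart. Its male sham values were 15.06, 15.59, 15.40, 15.64 and 15.36, and its male CLP values 14.61, 14.69, 14.16, 14.35 and 14.67, so the groups did not overlap. The change was -0.91 ± 0.15 in males, 1.88-fold lower (adjusted p = 0.000858), and -0.84 and -0.96 within the slides. In females the sham values of 15.56, 15.38, 15.09, 15.57 and 15.27 also lay above all CLP values, which were 14.63, 14.68, 14.74, 14.34 and 14.21. The female change of -0.85 ± 0.24 missed the 1% threshold, with an adjusted p of 0.0328. SAM, a permutation-based test, called Acsl1 lower in both sexes at a false discovery rate of 1%.

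Acsl4, which favours arachidonic acid, went the other way in males. Its male sham values were 6.88, 7.68, 7.45, 7.41 and 7.25 and its male CLP values 7.69, 8.23, 8.49, 8.21 and 8.81, so that the closest hearts differed by little and the groups did not overlap. The change of 0.95 ± 0.21, 1.94-fold higher, was called (adjusted p = 0.00541), but the adjusted p rose above 1% when any of 8 of the 10 arrays compared was left out, and reached 0.0149 when the 2 groups alone were fitted. Females had 0.47 ± 0.22 (adjusted p = 0.213). Their sham hearts ran from 7.41 to 7.85 and their CLP hearts from 7.58 to 8.50. The remaining synthetases Acsl3, Acsl5 and Acsl6 were not called in any comparison.

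Mgll, monoacylglycerol lipase, completes the breakdown of stored triglyceride. In male sham hearts it measured 13.95, 13.12, 13.44, 13.48 and 13.48, and in male CLP hearts 13.19, 12.55, 12.34, 12.46 and 12.29. Male CLP 1 was the one CLP heart above the lowest sham heart, and it is among the 4 arrays with wide scatter. The change was -0.93 ± 0.21, 1.90-fold lower (adjusted p = 0.00603). Like the call of Acsl4, it was lost without any of 8 of the 10 arrays (adjusted p up to 0.0185). The other probes of Mgll gave -0.99 each, with adjusted p of 0.0115 and 0.0026. The female change was -0.46 ± 0.19 (adjusted p = 0.159).

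Acaa1a encodes a peroxisomal 3-ketoacyl-CoA thiolase, which shortens very long chains outside the mitochondrion. Female sham hearts gave 11.62, 11.67, 12.04, 11.88 and 11.87, and female CLP hearts 12.43, 12.61, 12.25, 12.57 and 12.72, all above the sham hearts. The change was 0.70 ± 0.13, 1.62-fold higher (adjusted p = 0.00338). The call was lost without female sham 1 (adjusted p = 0.011), with the 2 groups fitted alone (adjusted p = 0.0175) and when the slide row entered the fit (0.61, adjusted p = 0.0289), and its second probe gave 0.41 (adjusted p = 0.12). The male CLP hearts, at 12.46, 12.42, 12.70, 12.43 and 12.43, also lay above the male sham hearts, at 11.98, 12.04, 11.90, 12.19 and 12.38. Their change of 0.39 ± 0.12 had an adjusted p of 0.0317. The close relative Acaa1b is read by another probe, and the reporting probes of Acaa1a and Acaa1b share no run of more than 7 bases.

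**Figure D2:**
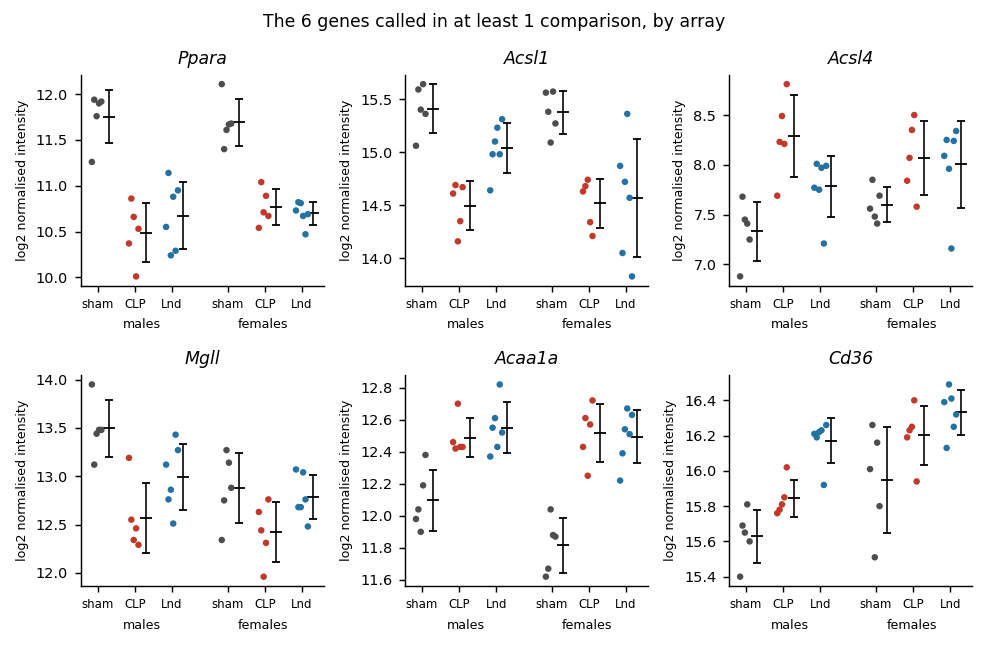
Log2 normalised intensity (y axis) of the 6 genes called in at least 1 comparison, by array, with the mean and SD of each group beside the points. Lnd is CLP plus landiolol, and levels are not comparable between panels or between sexes. Ppara lies lower in all CLP and landiolol hearts than in the sham hearts of the same sex. The group mean of male Cd36 is highest in the landiolol hearts, which overlap the CLP hearts.

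Groups that did not overlap were counted beside the calls. In males 3 members (Lpl, Acsl4 and Acaa1a) lay wholly above sham, as did 6.58% of all genes, and 3 (Acsl1, Mlycd and Ppara) wholly below, as did 7.83%. In females Acaa1a lay above, beside 4.62% of all genes, and Fabp3, Acsl1 and Ppara below, beside 5.25%. These shares among the members, 3 of 39 in each case but 1, are near those of all genes.

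At the vessel wall and membrane, no member was called after CLP. Lpl, lipoprotein lipase, had one of the narrowest spreads of all members in males and moved by 0.22 ± 0.09 there (adjusted p = 0.111). It ran from 16.38 to 16.65 in male sham hearts and from 16.65 to 16.86 in male CLP hearts. In females Lpl gave 0.30 ± 0.14 (limma adjusted p = 0.213). Its second probe gave 0.28 in males (limma adjusted p = 0.376) and 0.74 in females (limma adjusted p = 0.0421). Angptl4, the inhibitor of this lipase, gave 0.96 ± 0.43 in males, but varied by more than a log2 unit within both groups (adjusted p = 0.15). Cd36, the fatty acid translocase, gave 0.21 ± 0.10 in males and 0.25 ± 0.15 in females.

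Fabp3, the fatty acid-binding protein of heart muscle, had the largest change among the carriers. Female sham hearts gave 17.22, 17.24, 16.51, 17.22 and 16.69, and female CLP hearts 15.98, 16.42, 16.10, 16.27 and 14.56. All CLP hearts lay below the sham hearts, the lowest being female CLP 5, one of the arrays with wide scatter. The female change was -1.11 ± 0.33 (adjusted p = 0.0421) and the male change -0.83 ± 0.36 (adjusted p = 0.137), neither past 1%. Without female CLP 5 the female change was -0.78 (limma adjusted p = 0.0615). Fabp4, the adipocyte and endothelial form, gave 0.24 in males and -0.45 in females.

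At the gate of the mitochondrion, Mlycd, which removes the malonyl-CoA that blocks carnitine palmitoyltransferase 1, came closest to a call. Its male sham values were 13.82, 14.05, 13.72, 14.11 and 13.91 and its male CLP values 13.65, 13.44, 13.06, 13.09 and 13.56, without overlap. The change was -0.56 ± 0.14 (adjusted p = 0.0135). Cpt1b, the muscle form of the transferase, changed by -0.05 ± 0.13 in males and 0.05 ± 0.15 in females. Cpt1a, the liver form, gave -0.44 and -0.63 and was not called. Cpt2 and Crat, the inner transferase and carnitine acetyltransferase, stayed between -0.25 and 0.18 in both sexes.

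The 16 genes of mitochondrial oxidation were Cpt1b and Cpt2, the acyl-CoA dehydrogenases Acadvl, Acadl, Acadm and Acads, the trifunctional protein Hadha and Hadhb, Hadh, the thiolase Acaa2, the auxiliary enzymes Eci1, Eci2 and Decr1 for unsaturated chains, and the electron carriers Etfa, Etfb and Etfdh. Their male changes ran from -0.31 (Hadh) to 0.21 (Hadhb), with a median of -0.14 and a lowest adjusted p of 0.232. The female changes ran from -0.60 (Acaa2) to 0.11 (Hadhb), with a median of -0.05 and a lowest adjusted p of 0.305. Both ends rest on female CLP 5: without it Acaa2 gave -0.31 and Hadhb 0.57, still the ends of the range, and none of the 16 was called. The 95% interval lay within a log2 change of 1 either way for 15 of the 16 in males and 14 in females, and within 0.5 for 6 and 8. For the others the interval was too wide to bound the change that closely.

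The precision differed widely along this route, and it is that of the reporting probe, not of every probe of a gene. Hadha stayed between 15.81 and 16.04 in all male sham and CLP hearts, and its 95% interval for the male change was -0.16 to 0.21. Hadhb, which encodes the partner subunit of the same enzyme complex, ran from 10.28 to 13.01 in male sham hearts and from 10.89 to 12.73 in male CLP hearts. Its interval in males, -0.99 to 1.41, allows a change of more than 2-fold upward. In simulated data with as many arrays, 100 probes of 25835 in males and of 25316 in females were changed by 1 log2 unit, and 100 by 2. Of those changed by 1, 39% were recovered in males and 31% in females. A larger share of genes was called in the male hearts after CLP, 4.39% higher and 5.11% lower. The adjusted threshold is stricter where fewer probes change, so these shares do not give the recovery in these hearts. A change of that size could still go uncalled, as that of Plin5 in males did, at -1.06.

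Within-group spread over the 39 members had a median SD of 0.33 in males (0.31 over all genes) and 0.35 in females (0.34 over all genes). It was widest in males for Hadhb at 0.97, Acot1 at 0.90 and Acsl6 at 0.88, and narrowest for Lpl and Hadha at 0.09. In females Acot1 had 1.07 and Hadhb 0.96, while Acadvl had 0.13. The 4 arrays with wide scatter took the lowest place of their group for 20 to 25 of the 39 members, and the highest for 5 or 6. Female sham 3, with an interquartile range of 0.45 and not among the 4, was close to them, lowest for 19 members and highest for 6. Hadhb, Etfa and Plin5 were each at their lowest of the group on male sham 1, male CLP 1, male landiolol 5 and female CLP 5, though narrowly for Plin5 on male landiolol 5.

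**Figure D3:**
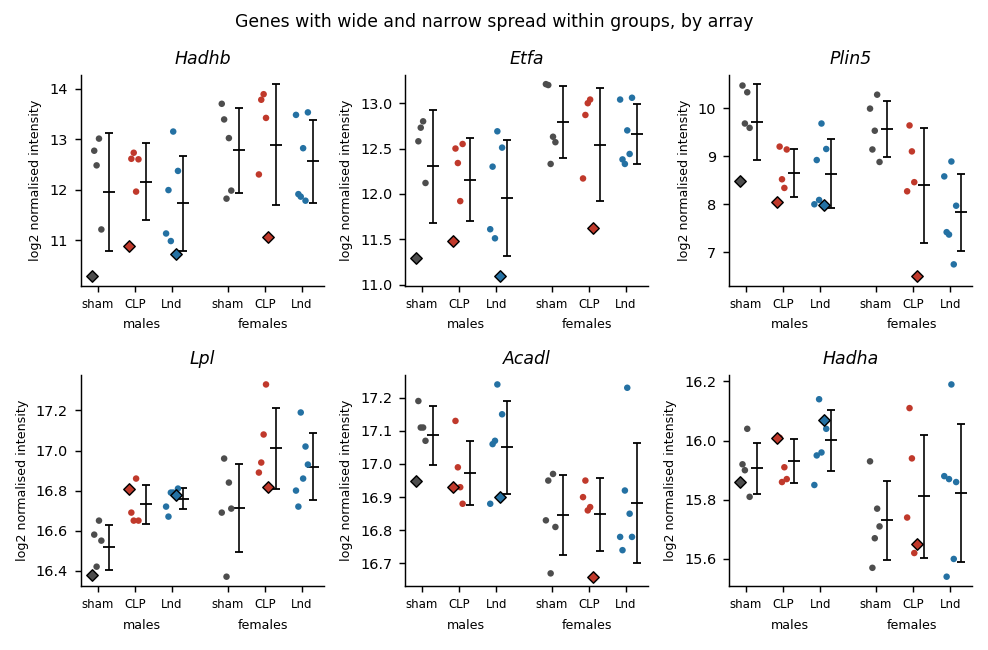
Log2 normalised intensity (y axis) of 3 members with wide spread (Hadhb, Etfa and Plin5) and 3 with narrow spread (Lpl, Acadl and Hadha), by array. Diamonds mark male sham 1, male CLP 1, male landiolol 5 and female CLP 5. In males the pooled SD is 0.97 for Hadhb and 0.09 for Lpl and Hadha. The probes of Lpl and Acadl have 10 spots an array, which were averaged, and the others 1.

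In storage and release of triglyceride, Mgll was the one call. Pnpla2, adipose triglyceride lipase, takes the first step, and gave 0.74 ± 0.38 in males (adjusted p = 0.224) and 0.55 ± 0.34 in females. Plin2, the common coat protein of lipid droplets, gave 0.94 ± 0.40 in males (adjusted p = 0.128), with CLP hearts at 10.94, 13.40, 12.50, 12.52 and 13.29 and sham hearts at 11.05, 12.06, 11.81, 11.89 and 11.12. Its lowest CLP heart was again male CLP 1. Without the 4 arrays both were called in males, Pnpla2 at 0.82 (adjusted p = 0.00738) and Plin2 at 1.21 (adjusted p = 0.00786). Plin5, the droplet protein of oxidative tissue, gave -1.06 ± 0.40 in males and -1.17 ± 0.51 in females and was not called, and the female value was -0.70 without female CLP 5. Lipe, hormone-sensitive lipase, gave -0.26 and -0.01.

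The thioesterases Acot1 and Acot2, which release fatty acids from coenzyme A, were not called. Acot1 was near background: it was well above it on all arrays in male landiolol hearts alone, and on 4 arrays in each other group. Male landiolol hearts against sham gave Acot1 1.48, the highest change of the members there (limma adjusted p = 0.0749). Without the 4 arrays with wide scatter it was 1.62 (limma adjusted p = 0.0436), and SAM on all arrays of the 2 groups called it higher. Pdk4, a PPARα target that turns off glucose oxidation, gave 0.68 ± 0.41 in males and -0.21 ± 0.52 in females by its reporting probe. The female value turned to 0.23 without female CLP 5. The second Pdk4 probe gave the same 0.68 in males, with an adjusted p of 0.0321.

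Landiolol was compared with CLP to ask whether the members moved back toward sham. No member was called in males, where 1.05% of all genes tested were higher and 0.793% lower, and none in females, where the shares were 0.0679% and 0.0453%. At an unadjusted p below 5%, 5 members in males and 1 in females passed. SAM, the permutation-based test that the study used, run here with 100 drawn permutations, called 2 in males (Acsl1 and Cd36) and none in females. This comparison shares the CLP arrays with the one above, and so a change after CLP and its opposite after landiolol are not independent.

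In males the lowest adjusted p was that of Acsl1. Its landiolol hearts ran from 14.64 to 15.31 with a median of 15.04. The lowest of them lay among the CLP hearts, and the others above all CLP hearts. The change from CLP was 0.54 ± 0.15 (adjusted p = 0.08). Female landiolol hearts ran from 13.83 to 15.36 with a median of 14.64, and changed by 0.04 ± 0.23. The male change minus the female change was 0.51 ± 0.27 (limma adjusted p = 0.968).

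Male Cd36 gave 0.33 ± 0.10 against CLP (adjusted p = 0.122), Mlycd 0.44 ± 0.14 (adjusted p = 0.132), Mgll 0.43 ± 0.20 (adjusted p = 0.332) and Acsl4 -0.50 ± 0.20 (adjusted p = 0.246). Ppara gave 0.19 in males and -0.07 in females. Without the 4 arrays with wide scatter, Cd36 at 0.35 (adjusted p = 0.0376) and Acsl4 at -0.54 (adjusted p = 0.0463) were called in males. In females the lowest unadjusted p was that of Fabp4, at 0.42 ± 0.19 (adjusted p = 0.514). The 16 genes of mitochondrial oxidation ran from -0.43 to 0.26 in males and from -0.33 (Hadhb) to 0.33 (Acaa2) in females. Without female CLP 5 the female range was -0.79 (Hadhb) to 0.20 (Decr1), and Acaa2 gave 0.04.

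**Figure D4:**
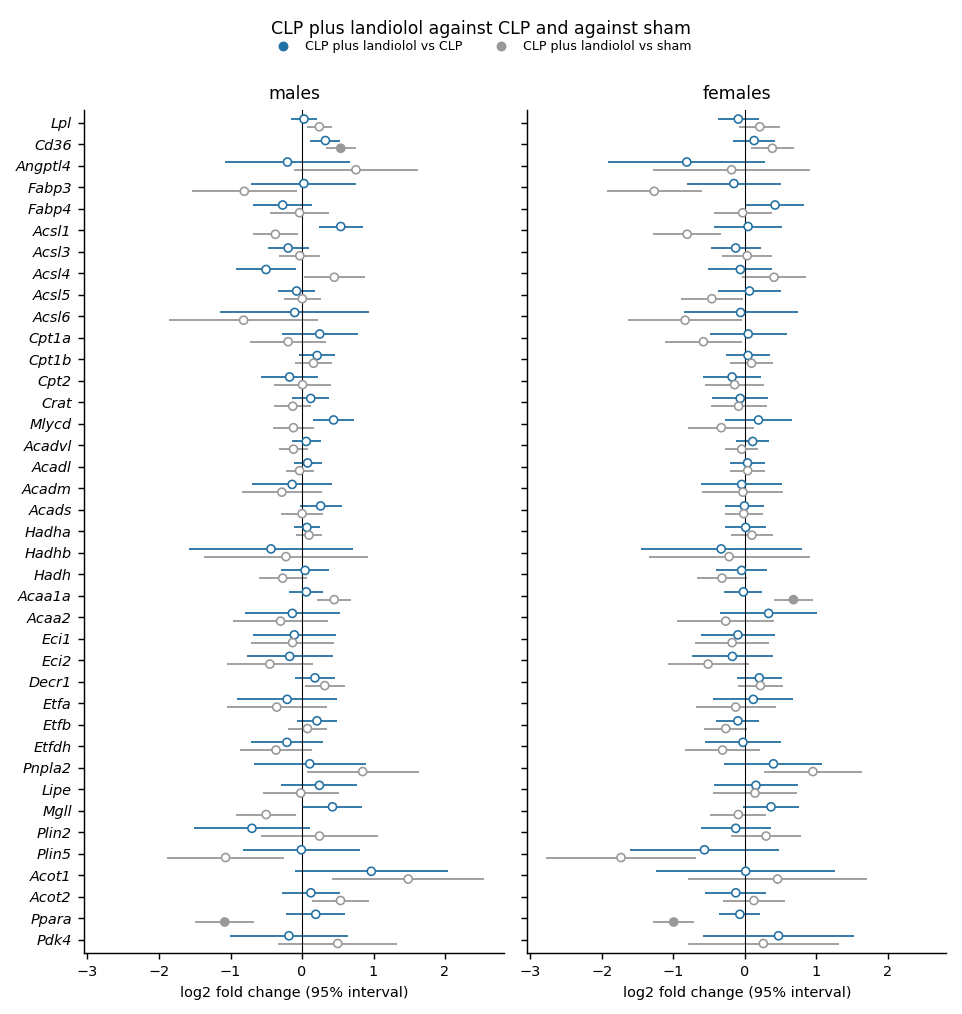
Change of the 39 genes in CLP plus landiolol hearts against CLP (blue) and against sham (grey), as log2 fold change with its 95% interval on the x axis. Filled points are called genes: none against CLP, and against sham Cd36 and Ppara in males and Acaa1a and Ppara in females.

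Against sham, landiolol hearts had lower Ppara in both sexes. The male landiolol hearts ran from 10.24 to 11.14 with a median of 10.72, all below the sham hearts, and the change was -1.08 ± 0.20 (adjusted p = 0.00249). The female ones ran from 10.47 to 10.82 with a median of 10.71, with a change of -0.996 ± 0.14, 1.99-fold lower (adjusted p = 0.000275). In each sex 1 member was called higher and 1 lower, against 2.83% and 2.28% of all genes in males and 3.57% and 2.63% in females. These comparisons share the sham arrays with those of CLP. Pnpla2 in males gave 0.85 (limma adjusted p = 0.168) and was called without the 4 arrays with wide scatter, at 1.03 (limma adjusted p = 0.00275).

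Cd36 was the member called higher in males. Its sham hearts gave 15.40, 15.69, 15.65, 15.81 and 15.60, its CLP hearts 15.76, 15.78, 15.81, 15.85 and 16.02, and its landiolol hearts ran from 15.92 to 16.26 with a median of 16.22. All landiolol hearts lay above the sham hearts. The change was 0.54 ± 0.10, 1.46-fold higher (adjusted p = 0.00256), and 0.66 and 0.45 within the slides. The other 2 Cd36 probes gave 0.82 and 0.56, with adjusted p of 0.0335 and 0.0422. They end at the same position and share their last bases, so they are not separate readings. Probe 2 bears the name Cd36 in the female files alone. The female change was 0.38 ± 0.14 (adjusted p = 0.0867).

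Acaa1a was the member called higher in females, where landiolol hearts ran from 12.22 to 12.67 with a median of 12.52. The change was 0.68 ± 0.13 (adjusted p = 0.00235), and 0.58 and 0.79 within the slides. In females the sham arrays lay in one row of the slides and the landiolol arrays in the other, so row and group cannot be told apart in this comparison. With the row as a term of the fit, Ppara gave -1.01 with an adjusted p of 0.128, and Acaa1a 0.46 with an adjusted p of 0.543. That term rests on the female CLP arrays alone, which lay in both rows, so it cannot settle the point. Row also went partly with group for female landiolol against CLP. Fabp3 and Plin5 in females gave -1.27 ± 0.31 (adjusted p = 0.0146) and -1.73 ± 0.49 (adjusted p = 0.0302). Both were called without the 4 arrays, at -1.27 (adjusted p = 0.0018) and -1.74 (adjusted p = 0.00747). The one female array among them, female CLP 5, is in neither group compared here. Leaving it out acts through the normalisation, the filter and the spread shared by the 3 groups, and the changes stayed nearly the same. The second probe of Pdk4 passed the threshold in males, at 0.88 (adjusted p = 0.00908), while its reporting probe gave 0.50, or 0.33 without the 4 arrays.

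The study asked whether sepsis and landiolol act differently in males and females. The difference of the changes between the sexes was tested on all 32 arrays normalised together, and neither for CLP (0% of all genes) nor for landiolol against CLP (0%) did a member pass a false discovery rate of 5%. At an unadjusted p below 5%, 2 members differed for CLP and 1 for landiolol. These were Acsl5, whose male change exceeded the female one by 0.61 ± 0.25 after CLP (limma adjusted p = 1), and Fabp4, with a difference of 0.69 ± 0.29 after CLP (limma adjusted p = 1) and -0.70 for landiolol (limma adjusted p = 0.968). For genes that limma called in 1 sex alone, the differences after CLP were -0.09 ± 0.28 for Acsl1, 0.48 ± 0.31 for Acsl4, -0.47 ± 0.29 for Mgll and -0.31 ± 0.17 for Acaa1a, none past the threshold. Of these, SAM called Acsl1 in both sexes.

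The other genes of fatty acid metabolism were read from 7 lists of 120 genes with a probe. After CLP 17 of the 112 tested were called in males, or 15.2% beside 9.5% of all genes, and 13 of the 110 tested in females, or 11.8% beside 4.37%. Among 19 PPAR regulators and coregulators, 3 were lower and 0 higher in each sex. They included Ppargc1b, a coactivator of oxidative genes, at -2.65 ± 0.28 in males (adjusted p = 2.9e-05) and -1.70 ± 0.33 in females (adjusted p = 0.00387), and Esrra, the estrogen-related receptor that works with it, at -0.67 ± 0.16 and -0.86 ± 0.17. Ppargc1a was called in females at -1.54 ± 0.28 (adjusted p = 0.00304), and gave -1.03 ± 0.47 in males (adjusted p = 0.163). Rxrg, a partner of PPARs on DNA, was lower in males at -1.24 ± 0.23 (adjusted p = 0.00155).

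Of 22 other genes of mitochondrial oxidation, 3 were lower in males and 2 in females, and none was higher. Ucp3, a mitochondrial carrier that PPARα induces, fell from a mean of 10.23 to 7.46 in males and from 10.35 to 7.48 in females, 6.81-fold (adjusted p = 0.000245) and 7.32-fold (adjusted p = 0.0037). Acot13, a thioesterase, fell by 0.78 and 0.92 on the log2 scale, and Acot7, another, by 0.64 in males.

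Among genes of transport and activation, 4 of 16 were higher and 1 lower in males, and 2 of 15 were higher and 1 lower in females. Acsbg1, an acyl-CoA synthetase, rose by 2.30 ± 0.27 in males (adjusted p = 5.1e-05) and gave 0.59 ± 0.64 in females. Gpihbp1, which holds lipoprotein lipase at the capillary wall, rose 3.42-fold in males, where 4 of 5 sham arrays measured it above background, and Fabp5, a binding protein of endothelium and macrophages, rose 3.23-fold in males and 2.31-fold in females. Of 8 macrophage and monocyte markers, 4 were called higher in males and 3 in females, and their part in the change of Fabp5 was not tested. Acss2, which activates acetate, rose 2.92-fold in females, and Slc22a5, the carnitine transporter of the membrane, fell by 0.90 on the log2 scale there.

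In triglyceride synthesis and lipid droplets, 1 of 18 genes was higher and 2 lower in males, and 1 of 17 higher and 1 lower in females. G0s2, the inhibitor of adipose triglyceride lipase, fell 7.48-fold in males (adjusted p = 0.000835) and gave -1.42 ± 0.58 in females (adjusted p = 0.145). Agpat3, an acyltransferase, fell by 1.58 in males and 1.48 in females, and Lpin2, a phosphatidate phosphatase, rose 1.93-fold in males and 2-fold in females. Of 15 peroxisomal genes, 1 was higher in males and 2 were higher in females, and none was lower. Scp2, a lipid carrier with a thiolase domain, rose by 0.67 and 0.68, and Acaa1b rose by 0.68 in females. Of 15 genes of synthesis and desaturation, Fads1 alone was called, at -0.90 in males. Of 7 genes of ketone body handling, Bdh1, which converts the main ketone bodies into each other, rose by 1.09 in males and 1.08 in females.

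**Figure D5:**
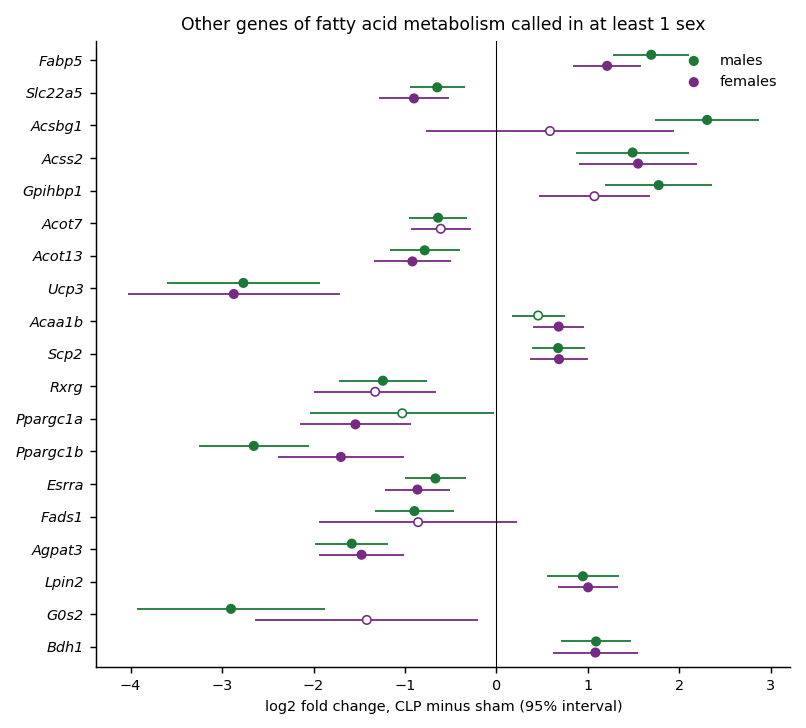
Change in CLP hearts against sham hearts (x axis, log2 fold change with its 95% interval) of the 19 genes of the other lists called in at least 1 sex. Filled points are called genes. Ppargc1b, Ucp3 and Agpat3 lie below 0 and Fabp5, Acss2, Scp2, Lpin2 and Bdh1 above 0 in both sexes.

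Landiolol against CLP gave 2 calls among these lists in males, Fabp5 at -0.83 ± 0.19 (adjusted p = 0.0372) and Bdh1 at -0.89 ± 0.17 (adjusted p = 0.0183), and none in females. Against sham 8 of 112 genes were called in males, or 7.14% beside 5.11% of all genes, and 15 of 110 in females, or 13.6% beside 6.19%. Ucp3 in male landiolol hearts had a mean of 8.75, between those of CLP and sham, and its change from CLP of 1.29 ± 0.38 was not called (adjusted p = 0.113).

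The promoters of 32 members were in the RefSeq table used (build GRCr8, 300 bases around the start). The hexamer AGGTCA, the core of many nuclear receptor sites, was searched on both strands and occurred in 5 of them, those of Acadvl, Eci1, Eci2, Hadhb and Plin5. That is 15.6%, beside 16.2% of all 33469 promoters in the table. The 6 called genes were all in the table, and these letters were not in their windows.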

How the data were processed

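Per the submitters' notes, the authors scanned the arrays with Agilent Feature Extraction 10.5, and the deposited files hold each spot's processed intensity in arbitrary units, background-subtracted and on a linear scale. The authors also deposited a table of normalised log2 values, used as an alternative, whose centring is not stated. From the intensities, outlier spots were left out, log2 values of a probe's spots averaged, and arrays quantile-normalised within each sex. Probes had to be well above background on 80% of the arrays of 1 group. Groups were compared with limma 3.58.1 (R 4.3.3, data.table version 1.17.8), all 3 groups of a sex in one fit, with Benjamini-Hochberg adjustment over the 25866 probes kept in males and 25395 in females. Between 34920 and 43155 spots an array were well above background, and the number of arrays limits the precision. Each array is 1 animal, numbered here in the order of the records.

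Full statistics are given for members called in at least 1 comparison, the others by counts and by the values of those closest to a call or needed for the order of the pathway. From the other lists at most 3 genes a list and comparison are named, those that changed most among the called, and Ucp3 again for landiolol. One gene of these lists is not reported here. The members and lists were chosen with earlier results of these data known. Of the members' 55 probes, 11 genes had more than 1. Fits were tested on simulated data. Alternatives covered background correction, scaling, filter, slide, row, array weights, samples in the fit, threshold and SAM with 100 drawn permutations.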

Additional observations from a re-analysis of the deposited data

Results flagged for a closer look

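A group was flagged where its highest or lowest heart stood far from the rest, with a gap to the nearest heart that was large beside the whole range of the group. This held in 14 of 234 combinations of a member and a group, and chance alone flags about 1 in 20. In each case the gap is given as a share of the range.

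Single low hearts were found for Cd36 in male landiolol hearts (15.92 with the next at 16.19, a share of 0.794), Acsl4 in male landiolol hearts (7.21 and 7.75, 0.675) and Pnpla2 in male landiolol hearts (11.82 and 13.49, 0.723). All 3 were male landiolol 5, one of the 4 arrays with wide scatter. Female CLP 5, another of these, was low for Fabp3 (14.56 and 15.98, 0.763), and male sham 1 for Ppara (11.26 and 11.76, 0.735). The other low hearts were male sham 2 for Fabp4 (13.01 and 13.41, 0.714), male sham 5 for Decr1 (14.40 and 14.91, 0.761) and female landiolol 4 for Acsl4 (7.16 and 7.96, 0.678).

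Single high hearts were male CLP 1 for Mgll (13.19 with the next at 12.55, 0.711) and for Etfb (16.66 and 16.26, 0.769), male CLP 3 for Acaa1a (12.70 and 12.46, 0.857), male CLP 5 for Acot2 (13.87 and 13.05, 0.774), female sham 3 for Lipe (8.85 and 7.99, 0.723) and female landiolol 4 for Acadl (17.23 and 16.92, 0.633). Male CLP 1 is also among the 4 arrays. No cause of these gaps was tested.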

How the results depend on the processing

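No called member changed direction under any alternative run. The 4 calls for CLP in males became 2 with no filter on dim probes and 2 with the compared groups alone, and 2 to 6 on leaving out 1 array, the lost genes being Acsl4 and Mgll. They became 6 with array weights and 6 without the 4 arrays with wide scatter. A false discovery rate of 5% added Acaa1a and Mlycd. Ppara and Acsl1 for CLP in males, and Cd36 and Ppara for male landiolol against sham and Ppara for CLP in females, were called under all alternatives run. For landiolol against CLP in males, array weights gave 3 calls (Acsl1, Cd36 and Mlycd), SAM 2 and leaving out the 4 arrays with wide scatter, an alternative added after seeing the data, 2, and leaving out 1 array gave 0. For male landiolol against sham, array weights gave 4 calls and leaving out 1 array 2. In females the 2 calls for CLP became 1 with the compared groups alone, 1 with the row of the slide in the fit, Acaa1a being lost in both, 4 at a false discovery rate of 5% and 1 to 2 on leaving out 1 array. SAM called Acsl1 besides these 2. Against sham, female landiolol hearts gave 0 calls with the row in the fit, where Ppara gave -1.01 (limma adjusted p = 0.128). They gave 5 with array weights, 5 at 5%, 5 by SAM, 4 without the 4 arrays and 2 to 3 on leaving out 1 array. Female landiolol against CLP and the differences between the sexes gave 0 calls throughout. No other alternative moved a count by more than 1.5 times. The cause was not tested.

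No paired analysis was run, as each array is a different animal and the labels name no pairs. Slides, 2 a sex, held all groups, and the slide as a term changed no count beyond that limit. Dim probes such as Acot1 sit near background. The SD of Acot1 within groups, 0.90 in males and 1.07 in females, was among the widest of the members.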
